A study of Mus musculus with 18 samples.

Results

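The CSF1 receptor axis was described here through 7 genes, chosen by symbol out of 55536 gene identifiers, of which 34037 had a count in at least 1 sample. They are the receptor Csf1r, its ligands Csf1 and Il34, the GM-CSF receptor subunits Csf2ra, Csf2rb and Csf2rb2, and Csf3r, the receptor of G-CSF. RNA was sequenced from microglia that had been enriched from the mouse striatum with magnetic beads that bind CD11b, an integrin chain on myeloid cells. The 18 samples were 5 WT, 3 Tyrobp-KO, 5 Q175 and 5 Q175;Tyrobp-KO samples of both sexes, all on a C57BL/6 background. Q175 mice were heterozygous carriers of an expanded CAG repeat knocked into the Huntington's disease gene Htt, Tyrobp-KO mice lacked both copies of Tyrobp in all tissues and not in microglia alone, and Q175;Tyrobp-KO mice carried both changes. The labels used here give no age, and they name 2 striata per sample where the methods name 1.

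CSF1R is a receptor tyrosine kinase on which microglia depend for their survival and renewal. It binds CSF1, which several brain cell types including microglia make, and IL34, which in the forebrain comes mainly from neurons. GM-CSF and G-CSF are related growth factors of myeloid cells that act through other receptors, which lack a kinase of their own and signal through JAK kinases and STAT factors. TYROBP is a membrane adaptor with a tyrosine activation motif that serves TREM2, CR3 and other receptors of myeloid cells, and signalling from CSF1R is known to engage it in macrophages.

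The sequences shown first are those that bear on the gene that differed between the groups and on genes whose reads are hard to separate. The first is the promoter of Csf1, 250 bases before the RefSeq start on the minus strand of chr3:107760470-107760719 (GRCm38.p6), with any motif in capitals. The next 2 are the same window for Csf3r (plus strand, chr4:126024409-126024658) and Csf2rb2 (minus strand, chr15:78305722-78305971), which varied together with Csf1r over the samples.
Csf1 promoter: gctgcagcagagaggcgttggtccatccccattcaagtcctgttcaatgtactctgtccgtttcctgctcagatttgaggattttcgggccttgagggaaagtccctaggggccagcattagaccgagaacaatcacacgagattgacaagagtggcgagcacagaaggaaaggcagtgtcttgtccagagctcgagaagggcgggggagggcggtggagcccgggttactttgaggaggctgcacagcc
Csf3r promoter: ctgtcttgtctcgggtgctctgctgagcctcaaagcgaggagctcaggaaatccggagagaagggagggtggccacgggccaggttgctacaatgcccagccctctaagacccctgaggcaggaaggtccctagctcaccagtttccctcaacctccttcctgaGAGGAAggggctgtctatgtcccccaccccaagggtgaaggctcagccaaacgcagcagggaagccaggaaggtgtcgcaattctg
Csf2rb2 promoter: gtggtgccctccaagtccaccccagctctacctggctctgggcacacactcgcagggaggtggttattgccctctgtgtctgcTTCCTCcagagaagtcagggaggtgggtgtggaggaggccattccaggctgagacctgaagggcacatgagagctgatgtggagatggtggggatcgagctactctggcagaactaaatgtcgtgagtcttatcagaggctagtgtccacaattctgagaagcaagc
The capitals mark GAGGAA, the core of the site bound by PU.1, a factor of the macrophage lineage, read on either strand. Csf3r and Csf2rb2 each held 1 such core, Csf2ra held 2 and Csf1 held 0, where 23.3% of 32851 promoter windows of the same length held at least 1. The AP-1 motif TGANTCA was found in none of these 4 windows and in 6.75% of all windows. A match describes letters only, and Csf1r, Il34 and Csf2rb are not among the genes whose windows were read.

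Csf2rb, the shared chain of the GM-CSF, IL3 and IL5 receptors, and Csf2rb2, a chain that serves IL3 in the mouse, are near copies of each other. Over 2628 aligned coding positions 95.24% were identical, and 26.0% of the 50-base stretches of the Csf2rb coding sequence also occurred in Csf2rb2. The first 120 coding bases are shown with their 4 differences in capitals, followed by 120 bases without a difference, coding bases 2083 to 2202 of both transcripts.
Csf2rb start: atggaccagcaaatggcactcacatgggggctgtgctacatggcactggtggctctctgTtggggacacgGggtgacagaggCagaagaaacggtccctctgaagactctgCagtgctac
Csf2rb2 start: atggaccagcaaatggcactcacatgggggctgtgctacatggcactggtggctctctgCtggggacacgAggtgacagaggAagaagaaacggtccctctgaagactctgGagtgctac
Csf2rb and Csf2rb2 shared: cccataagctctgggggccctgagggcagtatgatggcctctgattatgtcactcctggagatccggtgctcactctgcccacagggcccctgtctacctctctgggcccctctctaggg
The longest run without a difference was 242 bases, so a read inside it fits both genes, and the split of counts between Csf2rb and Csf2rb2 is uncertain.

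Total counts were between 11260410 and 29771983 per sample. Levels are given as normalized CPM, which are counts scaled to CPM after adjustment with trimmed means (TMM). Tyrobp was at 198 to 442 normalized CPM in the 10 WT and Q175 samples and at 9.59 to 22.3 in the 8 samples labelled Tyrobp-KO or Q175;Tyrobp-KO, and no library went against its label. The 10 microglial markers, P2ry12 and Tmem119 among them, summed to between 11421 and 19892 normalized CPM, with every marker detected in each group. Neuronal, astrocyte and oligodendrocyte markers were present as well, at summed levels of 452 to 2985, 588 to 6248 and 1693 to 6748.

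Csf1r was by far the most abundant of the 7 genes. Compared per kilobase of exon over all 18 samples, its level was 489 ± 191 (SD) normalized CPM per kb, and Csf3r followed with 73.1 ± 31.0. Csf2ra was next with 27.6 ± 6.98, and each of these steps held in 18 of 18 samples. Csf1 with 8.40 ± 3.05 and Csf2rb with 8.36 ± 3.51 could not be ordered, since Csf1 was above Csf2rb in 9 of 18 samples. Csf2rb2 had 7.02 ± 3.30 and was below Csf2rb in 17 samples, an order limited by the uncertain split of counts between them. Il34 was the lowest with 1.07 ± 0.763, below Csf2rb2 in 17 samples.

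Csf1, the ligand that macrophages and other cells secrete, was the gene of the axis that differed between the groups, with lower levels where Tyrobp was deleted. In WT replicates 1, 2, 6, 7 and 8 its level was 53.8, 47.1, 31.9, 72.5 and 73.4 normalized CPM, and in Tyrobp-KO replicates 15, 19 and 20 it was 27.6, 17.1 and 29.98. All 3 Tyrobp-KO samples were below all 5 WT samples, with WT replicate 6 close above them. In Q175 replicates 3, 4, 9, 14 and 17 the level was 49.97, 52.0, 44.1, 50.3 and 71.2 normalized CPM, and in Q175;Tyrobp-KO replicates 5, 11, 12, 13 and 16 it was 32.6, 36.1, 41.3, 32.1 and 36.0. Here too the groups with and without Tyrobp did not overlap, although the gap between 41.3 and 44.1 was small.

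**Figure D1:**
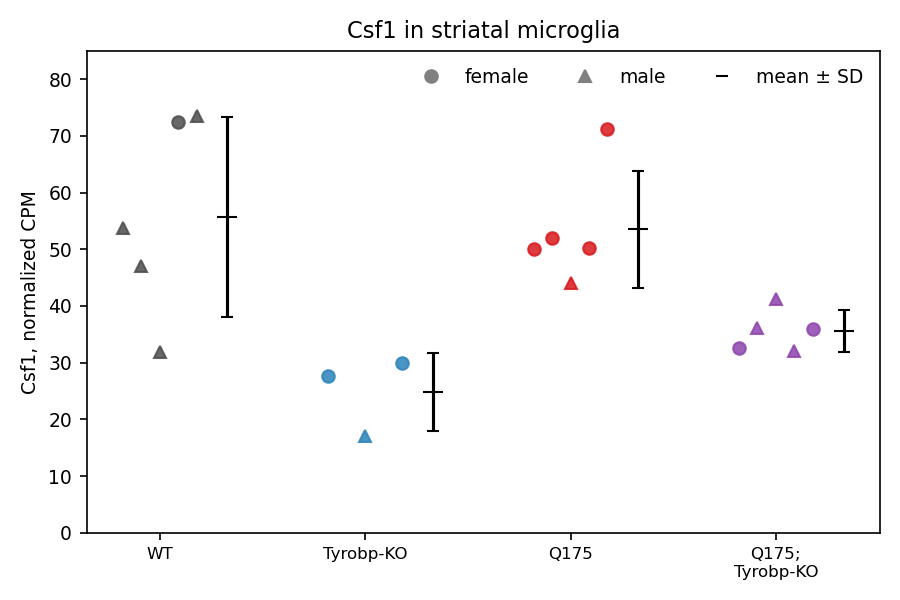
Level of Csf1 in normalized CPM (vertical axis, from 0) in each of the 18 samples by genotype. Circles are females, triangles are males and bars are the mean ± SD. The 8 samples without Tyrobp lie between 17.1 and 41.3, and of the 10 samples with Tyrobp only WT replicate 6, at 31.9, falls within that range.

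Over both backgrounds, Csf1 fell by 0.86 on the log2 scale with Tyrobp deletion (SE 0.17, 95% interval -1.22 to -0.50), from a mean of 54.6 ± 13.7 (SD, n = 10) to 31.6 ± 7.21 normalized CPM (n = 8). Its adjusted p was 0.0456 by edgeR's quasi-likelihood test with Benjamini-Hochberg adjustment over 18613 genes. This was 1 of the 7 genes, against 0.161% of all genes tested, and Csf1 was lower in 75 of the 80 pairs of a sample without and a sample with Tyrobp. In these bulk samples fewer cells of a type that makes Csf1 and less Csf1 RNA per cell cannot be told apart. The call was lost with total counts as scaling (adjusted p = 0.162), and without Tyrobp-KO replicate 15 (0.155), 19 (0.103) or 20 (0.106) or Q175;Tyrobp-KO replicate 13 (0.105), all by the same edgeR test.

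On each background by itself the difference of Csf1 had the same sign and edgeR called it in neither. Q175;Tyrobp-KO samples were 0.60 lower than Q175 samples on the log2 scale (SE 0.13, unadjusted p = 0.000733, adjusted p = 0.533 by edgeR's quasi-likelihood test). Tyrobp-KO samples were 1.16 lower than WT samples (SE 0.31, unadjusted p = 0.00327, adjusted p = 0.565 by the same test). Among all genes, 0.393% were lower without overlap in the first of these comparisons and 2.33% in the second, and 0.0806% of 18613 genes were so on both backgrounds, as Csf1 was. DESeq2's Wald test called Csf1 in both comparisons, with adjusted p = 0.0300 and 0.0711, where it called 0.227% and 0.932% of all genes.

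The Q175 allele came with no called difference in Csf1. Q175 and WT samples differed by -0.07 on the log2 scale (SE 0.22, 95% interval -0.55 to 0.41, edgeR's adjusted p = 0.999). Of 5 samples each, 1 was female in WT and 4 in Q175, so sex and the Q175 allele could hardly be told apart there. With sex as a term the difference was -0.32 for Csf1. For Csf2ra it was -0.42, against -0.04 without that term, and neither gene was called. Without Tyrobp, all 5 Q175;Tyrobp-KO samples were above all 3 Tyrobp-KO samples, by 0.51 (SE 0.20, unadjusted p = 0.0327, edgeR's adjusted p = 0.336). In that comparison 2.80% of all genes were higher without overlap and 13.2% had an unadjusted p under 0.05, so the share of such genes was large. The test of whether the Q175 difference depended on Tyrobp gave an interaction of 0.62 (SE 0.31, edgeR's adjusted p = 0.716), which did not pass.

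Csf1 was also read beside the sexes and the cell markers, since both were uneven between the groups. Females were 1 of 5 samples in WT, 2 of 3 in Tyrobp-KO, 4 of 5 in Q175 and 2 of 5 in Q175;Tyrobp-KO. In females its level was 49.97 to 72.5 normalized CPM in 5 samples with Tyrobp and 27.6 to 36.0 in 4 without. In males it was 31.9 to 73.4 in 5 samples with Tyrobp and 17.1 to 41.3 in 4 without, and these overlapped. With sex as a term the difference over both backgrounds was -0.86 (edgeR's adjusted p = 0.0634). With a score of the mean log2 levels of astrocyte, neuronal and oligodendrocyte markers in the model, the difference was -0.86 (adjusted p = 0.0466). Summed microglial markers ranged from 14049 to 17233 normalized CPM in WT, from 14707.5 to 19892 in Tyrobp-KO, from 11421 to 18174 in Q175 and from 12038 to 18065 in Q175;Tyrobp-KO, so these ranges overlapped. The 10 markers of monocytes or neutrophils summed to 54.0 to 216 in Tyrobp-KO, 5.42 to 202 in WT, 17.5 to 62.9 in Q175 and 20.8 to 91.6 in Q175;Tyrobp-KO, and of the 10 marker lists this sum ran most against Csf1 over the 18 samples (Pearson r = -0.66, Spearman rho = -0.56, r = -0.38 without the 2 samples of most extreme Csf1). The 8 markers of border macrophages were next (r = -0.36, rho = -0.40, r = -0.20 without those 2 samples). Microglial markers had nearly the same values (r = -0.36, rho = -0.36, r = -0.20 without those 2 samples). The border macrophage sum was low throughout, at 19.5 to 22.6 normalized CPM in Tyrobp-KO and 8.42 to 18.9 in WT. It was 7.21 to 35.3 in Q175 and 7.08 to 16.7 in Q175;Tyrobp-KO. The part of these cells in the result was not tested.

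The ratio of Csf1 to Csf1r counts within a sample needs no scaling between libraries. Per 1000 counts of Csf1r there were 17.4 to 40.3 counts of Csf1 in WT, 4.03 to 18.002 in Tyrobp-KO, 14.3 to 53.4 in Q175 and 8.05 to 15.04 in Q175;Tyrobp-KO. The samples without Tyrobp were low, with overlap on both backgrounds, since Tyrobp-KO replicate 20 and Q175;Tyrobp-KO replicate 5 reached into the range of the others. The mean log2 ratio was 1.27 lower in the 8 samples without Tyrobp (-6.66 ± 0.66, SD) than in the 10 samples with it (-5.39 ± 0.62). Against the summed microglial markers in place of Csf1r, the difference was -0.92. The ratio to Csf1r also holds the difference of Csf1r itself, which was 0.34 higher with Tyrobp deletion over both backgrounds and was not called (edgeR's adjusted p = 0.772).

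Csf1r itself, the receptor of both ligands, was called in no comparison. Its level was 1334, 2127, 1177, 4006 and 4222 normalized CPM in WT replicates 1, 2, 6, 7 and 8, and 3337, 4240 and 1665 in Tyrobp-KO replicates 15, 19 and 20. Q175 replicates 3, 4, 9, 14 and 17 had 3405, 973, 3079, 1746 and 2851 normalized CPM, and Q175;Tyrobp-KO replicates 5, 11, 12, 13 and 16 had 2170.45, 3452, 3268, 3981 and 3777. All 4 groups overlapped, and WT alone spanned a range of 3.59-fold. Over both backgrounds the difference with Tyrobp deletion was 0.34 on the log2 scale (SE 0.28, 95% interval -0.24 to 0.92, edgeR's adjusted p = 0.772). Its differences were -0.10 (SE 0.41) for Q175 against WT, 0.46 (SE 0.30) for Q175;Tyrobp-KO against Q175, 0.26 (SE 0.48) for Tyrobp-KO against WT and 0.12 (SE 0.29) for Q175;Tyrobp-KO against Tyrobp-KO, all smaller than 2 of their standard errors. The last exons of Csf1r on chromosome 18 share 873 of its 5774 exonic bases with Hmgxb3 on the other strand, which had 43.1 to 62.9 normalized CPM, and with a library that does not keep strand those reads cannot be told apart.

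Il34, the second ligand, was scarce in these microglia. Its level was 2.13, 3.11, 5.46, 1.23 and 0.767 normalized CPM in the 5 WT samples, 0.182, 0.749 and 3.31 in the 3 Tyrobp-KO samples, 1.70, 4.97, 2.13, 2.92 and 1.21 in the 5 Q175 samples and 3.34, 0.412, 1.21, 1.06 and 1.80 in the 5 Q175;Tyrobp-KO samples, in the order of replicates used for Csf1. The groups overlapped, and the highest sample, WT replicate 6, rested on 99 counts and the lowest, Tyrobp-KO replicate 15, on 3. Over both backgrounds Il34 differed by -0.81 on the log2 scale with Tyrobp deletion (SE 0.51, 95% interval -1.87 to 0.25, edgeR's adjusted p = 0.683). This interval held both 0 and the difference found for Csf1. Il34 also differed by -0.74 (SE 0.54) between Q175;Tyrobp-KO and Q175, by -0.87 (SE 0.85) between Tyrobp-KO and WT, by 0.15 (SE 0.88) between Q175;Tyrobp-KO and Tyrobp-KO and by -0.01 (SE 0.53) between Q175 and WT, and edgeR called none of these.

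**Figure D2:**
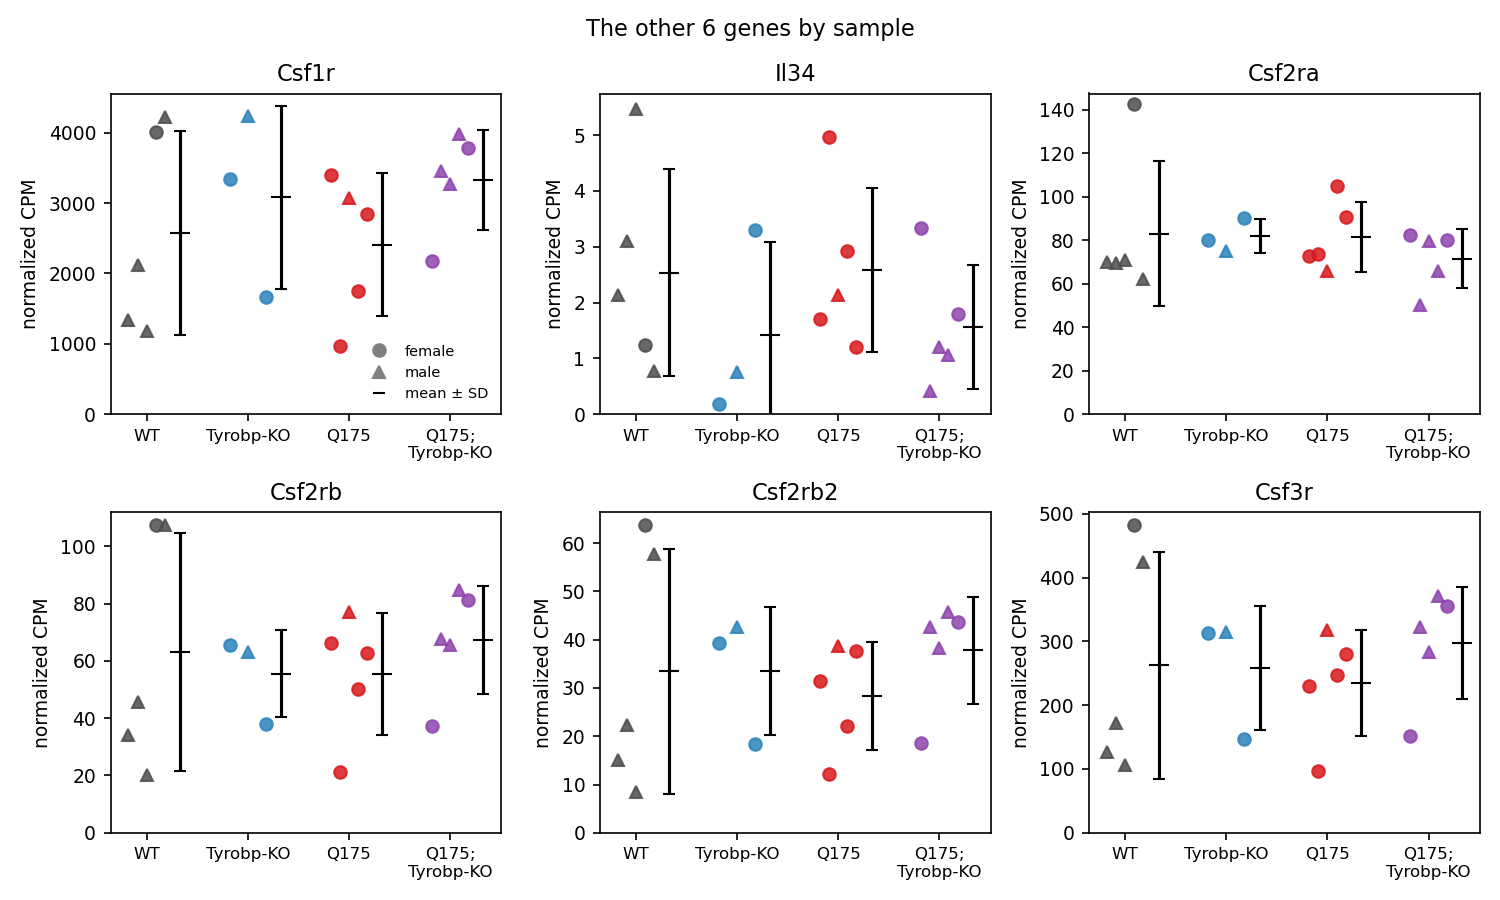
Levels of the other 6 genes in normalized CPM (vertical axes, from 0) by genotype, with circles for females, triangles for males and bars for the mean ± SD. An SD bar that would pass below 0, as for Il34 in Tyrobp-KO, ends at the axis. The groups overlap for every gene, and Csf2ra in WT replicate 7 stands at 143.

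Among the receptors of the other growth factors, Csf2ra, the chain that binds GM-CSF, was the most even. It was at 62.3 to 143 normalized CPM in WT, 75.3 to 90.5 in Tyrobp-KO, 65.7 to 105 in Q175 and 50.1 to 82.6 in Q175;Tyrobp-KO, with 4 of 5 WT samples between 62.3 and 70.8. With Tyrobp deletion over both backgrounds it differed by -0.15 on the log2 scale (SE 0.16, 95% interval -0.49 to 0.19, edgeR's adjusted p = 0.834). Csf2rb was at 20.3 to 108 normalized CPM over the 18 samples and differed by 0.05 (SE 0.30, adjusted p = 0.976), and Csf2rb2 was at 8.55 to 63.7 and differed by 0.20 (SE 0.33, adjusted p = 0.895). Csf3r, which binds G-CSF, was at 97.6 to 483 and differed by 0.15 (SE 0.30, adjusted p = 0.913). In the 4 comparisons of 2 groups, the differences of these 4 genes lay between -0.24 and 0.40, and all groups overlapped.

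Across the 7 genes, edgeR called 0 in Q175 against WT, 0 in Q175;Tyrobp-KO against Q175, 0 in Tyrobp-KO against WT and 0 in Q175;Tyrobp-KO against Tyrobp-KO, where it called 0%, 0.0111%, 0.0222% and 0% of all genes. At an unadjusted p under 0.05 these counts were 0, 1, 1 and 1, each time Csf1, where 6.24%, 8.01%, 6.82% and 13.2% of all genes fell under it. DESeq2 called 0, 1, 1 and 0, where it called 1.28%, 0.227%, 0.932% and 3.84% of all genes. Comparisons that share a group are not independent of each other. The median log2 difference of the 7 genes with Tyrobp deletion over both backgrounds was 0.05, beside -0.02 over all genes tested, with 4 genes above 0 and 3 below. For Q175 against WT all 7 differences were between -0.24 and -0.01 and their median was -0.10, beside -0.02 over all genes.

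**Figure D3:**
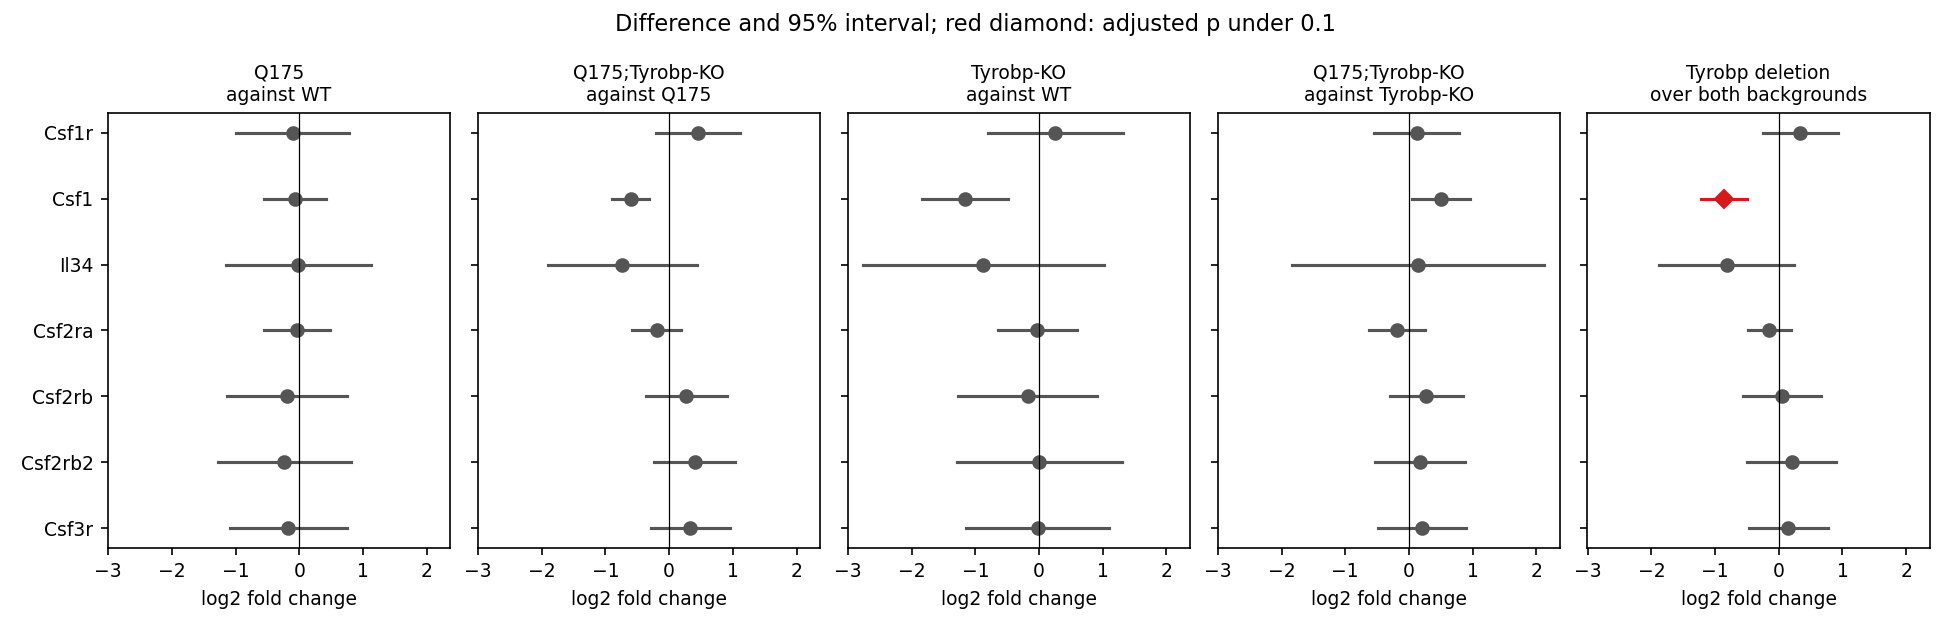
Log2 fold change (horizontal axis) of the 7 genes in the 4 comparisons of 2 groups and for Tyrobp deletion over both backgrounds, with 95% intervals derived from edgeR's F statistic. The red diamond marks the value with an adjusted p under 0.1, Csf1 at -0.86, and all intervals for Q175 against WT cross 0.

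The receptors varied widely between samples of the same genotype. Csf1r, Csf2rb, Csf2rb2 and Csf3r were low together in WT replicates 1, 2 and 6, Tyrobp-KO replicate 20, Q175 replicates 4 and 14 and Q175;Tyrobp-KO replicate 5, except that Csf3r was not low in Q175 replicate 14. Over 18 samples the Pearson r of log2 levels with Csf1r was 0.94 for Csf2rb (Spearman rho = 0.87), 0.95 for Csf2rb2 (0.95) and 0.93 for Csf3r (0.90), and without the 2 samples farthest from the median of Csf1r these r were 0.89, 0.94 and 0.88. Il34 ran the other way (r = -0.80, rho = -0.79, r = -0.68 without those 2). Csf1 (r = -0.07) and Csf2ra (r = -0.02) did not run with Csf1r in either direction. These are descriptions over samples that share their libraries, and 1643 of 10055 genes with a mean of at least 10 CPM had an r above 0.8 with Csf1r.

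**Figure D4:**
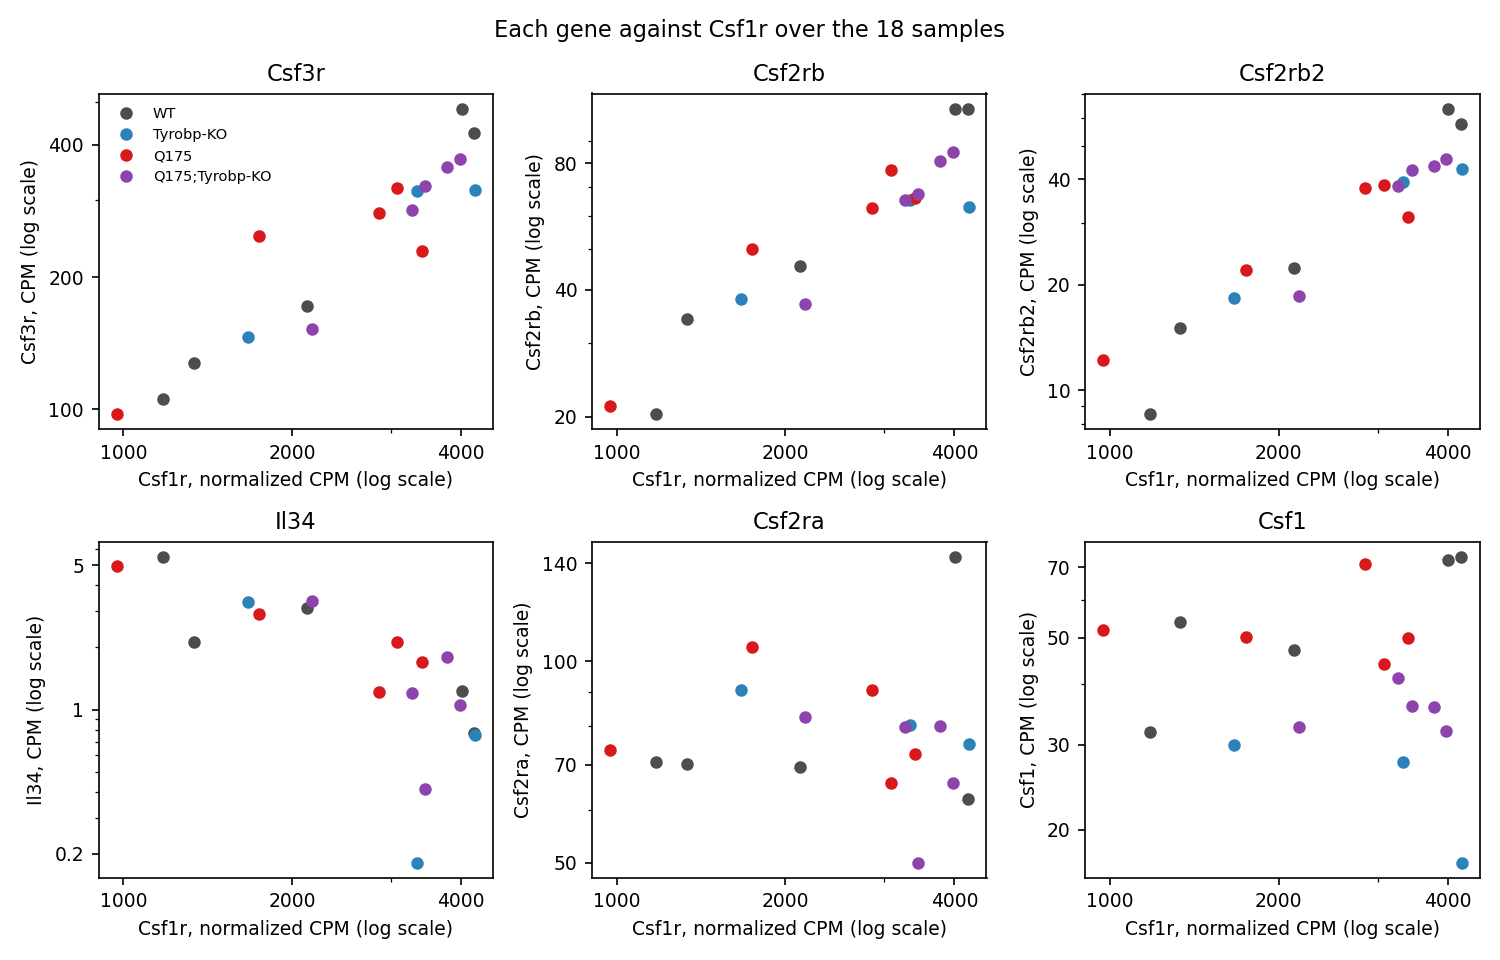
Level of each of the other 6 genes (vertical axis) against Csf1r (horizontal axis) in the 18 samples, in normalized CPM on log scales, coloured by genotype. Csf3r, Csf2rb and Csf2rb2 rise along Csf1r from its lowest value of 973 to its highest of 4240, Il34 declines, and Csf1 and Csf2ra show no slope.

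Several measures of the libraries moved with this spread. The first principal component of the 10055 genes took 40.3% of their variance and had r = 0.91 with Csf1r and r = -0.89 with Il34. Summed mural cell markers, 26.1 to 107 normalized CPM, had r = -0.75 with Csf1r and 0.80 with Il34, and summed neuronal markers had r = -0.56 and 0.76. The summed noncoding RNAs Gm42418 and Gm26917 had r = -0.68 with Csf1r (rho = -0.72) and r = 0.73 with Il34 (rho = 0.72). Summed microglial markers had r = 0.38 with Csf1r. Among the 10 samples with Tyrobp, Tyrobp itself had r = -0.57 with Csf1r (rho = -0.66, r = -0.78 without the 2 farthest samples), and in WT it was at 430, 397 and 442 normalized CPM in replicates 1, 2 and 6, where Csf1r was low, against 231 and 198 in replicates 7 and 8. The part of other cells or of RNA quality in the levels of Csf1r and Il34 was not tested.

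The genes most like 3 of the members over the 18 samples were named as a description, by Pearson r of log2 levels among genes with a mean of at least 10 CPM. For Csf1r they were Slco2b1 (r = 0.99, rho = 0.99), Nfam1 (0.99, 0.98), Smap2 (0.99, 0.99), Tnfrsf1b (0.99, 0.98) and Sirpa (0.99, 0.97). For Csf1 the values were lower, and the genes were Usp30 (0.92, 0.88), Lpl (0.88, 0.94), 1700030K09Rik (0.83, 0.82), Cpd (0.83, 0.85) and St8sia6 (0.82, 0.79). Without the 2 samples farthest from the median of Csf1 these r were 0.85, 0.92, 0.73, 0.82 and 0.86. All r here pool the 4 groups, so those with Csf1 also hold its difference between the groups. Il34 was most like Arhgef17 (0.93, 0.93), Shc2 (0.92, 0.93), Ankrd33b (0.91, 0.90), Eno2 (0.91, 0.90) and Necab2 (0.90, 0.90), of which Eno2 is a neuronal marker of the lists. Only 6 genes had an r above 0.8 with Csf1, against 1643 with Csf1r and 287 with Il34.

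The wider pathway was read through 50 further genes, of which 45 were tested. Csf2, which encodes GM-CSF, Csf3, which encodes G-CSF, and the cytokines Il3 and Il5 had 0 counts in all 18 samples, which allows up to 3 counts per library or 0.101 to 0.266 CPM, counting error only. The ligands of the GM-CSF and G-CSF receptors were thus not detected beside receptors that were. In all 6 comparisons, the interaction included, edgeR called 0 of the 45 genes. At an unadjusted p under 0.05 there were 3 genes in Q175 against WT, 4 in Q175;Tyrobp-KO against Q175, 2 in Tyrobp-KO against WT, 2 in Q175;Tyrobp-KO against Tyrobp-KO, 2 over both backgrounds and 1 for the interaction, where 6.24%, 8.01%, 6.82%, 13.2%, 8.81% and 6.01% of all genes fell under it. DESeq2 called 2, 0, 0, 1, 0 and 0 of them, where it called 1.28%, 0.227%, 0.932%, 3.84%, 0.811% and 0.0107% of all genes.

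By role, the genes of the pathway gave the following values. Of 20 genes of CSF1R signalling, Pik3r1, a regulatory subunit of PI3 kinase, and Cbl, a ubiquitin ligase that turns CSF1R over, were 0.47 (SE 0.19, edgeR's adjusted p = 0.533) and 0.44 (SE 0.19, adjusted p = 0.533) above Q175 in Q175;Tyrobp-KO. There the median of the 20 was 0.20 beside -0.05 over all genes. It was no larger than the 0.23 of the JAK-STAT genes, 0.38 of the transcription factors and 0.27 of the 7 members. The other lists had medians of -0.17 (other cytokines and receptor chains), 0.0015 (sheddases) and -0.40 (related receptor kinases). Of 9 JAK-STAT genes, Socs1, a feedback inhibitor, was 0.63 higher with Tyrobp deletion over both backgrounds (SE 0.23, adjusted p = 0.452), at a mean of 4.13 ± 1.004 normalized CPM in Tyrobp-KO against 1.997 ± 0.667 in WT and of 2.92 ± 0.909 in Q175;Tyrobp-KO against 2.27 ± 0.798 in Q175, where the difference was 0.35 (SE 0.30, adjusted p = 0.599). The kinase Jak1 was 0.48 above Q175 in Q175;Tyrobp-KO (adjusted p = 0.533). Socs2, of the same list, went the other way, at -0.66 in that comparison (SE 0.36, adjusted p = 0.533) and -0.45 over both backgrounds (SE 0.28, adjusted p = 0.681). None of these passed, although Pik3r1, Cbl and Jak1 in that comparison and Socs1 over both backgrounds had an unadjusted p under 0.05. The sheddases Adam10 and Adam17, which cut cell surface proteins including CSF1R, stayed above 157 normalized CPM in every sample. Adam10 was 0.31 lower in Q175;Tyrobp-KO than in Tyrobp-KO (SE 0.11, adjusted p = 0.315), and Adam17 was 0.42 lower in Q175 than in WT (SE 0.18, adjusted p = 0.725).

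Of 7 transcription factors, Cebpb was 0.63 lower in Q175;Tyrobp-KO than in Tyrobp-KO (SE 0.19, edgeR's adjusted p = 0.291, DESeq2's adjusted p = 0.0959, where DESeq2 called 3.84% of all genes). The mean of Cebpb was highest in Tyrobp-KO, at 20.2 normalized CPM, against 12.97 in Q175;Tyrobp-KO, 12.8 in WT and 10.1 in Q175. With Tyrobp deletion over both backgrounds Cebpb was 0.46 higher (SE 0.22, edgeR's adjusted p = 0.579). Ptprz1, a receptor phosphatase that also binds IL34 and is made by glial progenitors and astrocytes, was 1.10 higher in Q175 than in WT (SE 0.32, edgeR's adjusted p = 0.372) and 1.09 higher in Tyrobp-KO than in WT (SE 0.37, adjusted p = 0.610). Summed astrocyte markers were at 1018 to 6248 normalized CPM in Q175 and 732 to 4130 in Tyrobp-KO against 588 to 1079 in WT, and their part in the levels of Ptprz1 was not tested. Pdgfra, a kinase of the CSF1R family that marks oligodendrocyte progenitors, was 1.08 higher in Q175 than in WT (SE 0.26, adjusted p = 0.345). DESeq2 called Ptprz1 and Pdgfra there, with adjusted p = 0.0914 and 0.0294 against 1.28% of all genes. The 4 progenitor markers, Pdgfra among them, summed to 69.4 to 109 normalized CPM in WT and 68.1 to 128 in Q175, and these ranges overlapped. Females were 1 of 5 WT and 4 of 5 Q175 samples, and these values for Ptprz1 and Pdgfra are not adjusted for sex. Pdgfrb, the neighbour of Csf1r on chromosome 18 and a marker of mural cells, was 0.86 lower with Tyrobp deletion over both backgrounds (SE 0.30, adjusted p = 0.439), with a mean of 10.8 against 18.7 normalized CPM.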

How the data were processed

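Microglial RNA of 18 samples was made into non-directional libraries with SMART-Seq reagents for low input. Alignment by the authors was with STAR against GRCm38, and featureCounts gave 1 count per gene. The methods name a UCSC gene model, whereas the identifiers are Ensembl genes, all 55536 of which are in GENCODE M21, the source of symbols, positions and exonic lengths. The submitters' processing notes name the human build GRCh38, and the mouse build was taken from the methods. The deposited values are whole-number counts without normalization. A further 2 columns of counts have no sample in the labels and were not used. Total counts were 11260410 to 29771983 per sample, and amplified reads are not independent molecules, so intervals for counts cover counting error only.

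Groups came from the labels. Genes that reached 1 CPM in 1 or more samples of a fit were tested with edgeR 4.0.16 in R 4.3.3 (TMM, quasi-likelihood test) and called at a Benjamini-Hochberg FDR of 0.1. Comparisons of 2 groups used these groups alone, and Tyrobp deletion over both backgrounds, with Q175 as a covariate, and the interaction used all 18 samples. Alternatives were DESeq2 1.42.0 (Wald test), its size factors, total counts or summed microglial markers as scaling, the filterByExpr filter, all genes with a count, a stricter FDR of 0.05, sex as a term, a score of astrocyte, neuronal and oligodendrocyte markers as a term, 1 fit over all 4 groups, and leaving out each sample. That score was the mean log2(CPM + 1) of each list, standardized over the samples and averaged over the lists. Correlations used log2(CPM + 0.5). The fits were tested on simulated data. Promoters are from RefSeq (GRCm38.p6) and coding sequences from GENCODE M21. The 4 promoters matched are those of Csf1, Csf2ra, Csf2rb2 and Csf3r.

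Named are all 7 genes in every comparison, Tyrobp as a check, genes of the pathway lists that were called, otherwise up to 3 per list with the smallest unadjusted p, and, for Csf1r, Csf1 and Il34, the 5 genes with the highest Pearson r. The members and lists were chosen with earlier results of these data known. P-values measure the spread between the samples, each taken as a separate replicate. The methods describe dissociation of the striata from each mouse.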

Additional observations from a re-analysis of the deposited data

Results flagged for a closer look

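In each of the 3 groups of 5 samples, the highest and the lowest sample of each of the 7 genes were compared with the others by Dixon's test, which chance fails in about 1 of 20 groups. Among 21 such groups 2 held a sample that stood apart. Csf2ra in WT replicate 7 was at 143 normalized CPM, with a gap to the next sample of 0.894 of the range of the group. Csf2rb2 in Q175;Tyrobp-KO replicate 5 was at 18.6 normalized CPM, with a gap of 0.724 of the range, and that sample was also the lowest of its group for Csf1r, Csf2rb and Csf3r.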

How the results depend on the processing

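Csf1 stayed lower with Tyrobp deletion over both backgrounds under all 8 other settings and without each of the 18 samples, between -0.97 and -0.74 on the log2 scale, with edgeR's or DESeq2's adjusted p from 0.00125 to 0.162. The count of the 7 genes called there was 0 with total counts in place of TMM and 0 to 1 when 1 sample was left out, being 0 without Tyrobp-KO replicates 15, 19 or 20 or Q175;Tyrobp-KO replicate 13, and the cause was not tested. DESeq2 called 1 of the 7 genes, Csf1, in Q175;Tyrobp-KO against Q175 and 1 in Tyrobp-KO against WT, and called 2 pathway genes in Q175 against WT and 1 in Q175;Tyrobp-KO against Tyrobp-KO, where edgeR called 0. Over all genes edgeR called 0, 2, 4, 0, 30 and 0 in the 6 comparisons and DESeq2 234, 41, 168, 680, 151 and 2. With low-count genes kept, edgeR called 9 in Q175;Tyrobp-KO against Q175 and 15 in Tyrobp-KO against WT, and with 1 fit over all 4 groups 14 and 8. With sex as a term these were 1 and 3, and with the score of other cells 1 and 2. Over both backgrounds the count was 24 to 64 when 1 sample was left out. In Q175 against WT, where the sexes were most uneven, 1140 of 18266 genes had an unadjusted p under 0.05 by edgeR's test, and 246 with sex as a term.

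Scaling by microglial markers moved the median log2 difference of all genes from -0.02 to 0.21 in Q175 against WT, from -0.05 to -0.19 in Q175;Tyrobp-KO against Q175, from 0.02 to -0.12 in Tyrobp-KO against WT, from -0.01 to 0.20 in Q175;Tyrobp-KO against Tyrobp-KO and from -0.02 to -0.13 over both backgrounds. Total counts moved it from -0.05 to 0.08 in Q175;Tyrobp-KO against Q175 and from 0.04 to 0.15 for the interaction.

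The signs that turned all belonged to differences that were not called, and the cause was not tested. In Q175 against WT, microglial scaling gave 0.025 for Csf1r, 0.13 for Csf1, 0.38 for Il34 and 0.18 for Csf2ra, the score of other cells gave 0.066 for Csf1r and 0.30 for Il34, and sex as a term gave 0.28 for Il34. In Tyrobp-KO against WT, Csf2rb2 was -0.014 with DESeq2, -0.013 with its size factors, -0.032 with total counts, -0.27 with microglial scaling, -0.016 without a filter, -0.097 with sex as a term and -0.072 with 1 fit over all 4 groups, and Csf3r was 0.21 with the score. In Q175;Tyrobp-KO against Tyrobp-KO, Csf2ra was 0.021 with microglial scaling, and over both backgrounds Csf2rb was -0.11 and Csf3r -0.023. Leaving out 1 sample gave, in Q175 against WT, -0.28 to 0.11 for Csf1r, -0.21 to 0.028 for Csf1, -0.39 to 0.50 for Il34, -0.15 to 0.21 for Csf2ra, -0.41 to 0.077 for Csf2rb, -0.48 to 0.12 for Csf2rb2 and -0.37 to 0.16 for Csf3r. In Tyrobp-KO against WT it gave -0.029 to 0.52 for Csf1r, -0.14 to 0.25 for Csf2ra, -0.42 to 0.095 for Csf2rb, -0.26 to 0.34 for Csf2rb2 and -0.24 to 0.28 for Csf3r. In Q175;Tyrobp-KO against Tyrobp-KO it gave -0.16 to 0.42 for Csf1r, -0.38 to 1.74 for Il34, -0.096 to 0.40 for Csf2rb2 and -0.059 to 0.39 for Csf3r, and over both backgrounds -0.041 to 0.19 for Csf2rb. The log2 ratio of Csf1 to Csf1r was lower without Tyrobp by -1.40 to -1.09 when 1 sample was left out.

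Depth limits Il34 most, with 3 to 99 counts per sample. No paired analysis was possible because the groups compared share fewer than 2 numbers.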
